A study of Mus musculus with 6 samples.

Results

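The HOX genes are homeodomain transcription factors that lie side by side in chromosomal clusters A, B, C and D. A list of 30 mouse HOX genes of these clusters was followed across 6 lines of mpkCCD cells, each gene through the probe set of highest mean signal among those annotated to it alone. Of the 30, 28 had such a probe set, out of 18193 genes named on the array, while Hoxb8 and Hoxd4 were present only on probe sets shared with a neighbour. The mpkCCD cells are an immortalised line derived from the mouse renal cortical collecting duct. Labelled RNA of clones 2, 3, 9, 10 and 11 and of the original cells was hybridised to 6 Affymetrix arrays, 1 per line. All 6 lines, clone 2 included, had been kept with dDAVP, a vasopressin analog, at 0.1 nM for 5 days. The labels describe clone 2 as a line without expression of the water channel aquaporin 2 (gene Aqp2) and the 5 other lines as expressing it, and the series asks which transcripts go with that expression.

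Within a cluster the genes carry numbers that mark paralogue groups, low at the 3′ end and high at the 5′ end. In the embryo the order of the genes matches the order in which they are switched on in time and along the body axis, and many adult tissues keep a combination of active genes, often called a HOX code. Polycomb proteins keep inactive parts of the clusters silent, trithorax proteins keep active parts open, and PBX and MEIS proteins bind DNA together with HOX proteins. In the kidney the Hox11 genes are known for their role in the mesenchyme that induces the ureteric bud, and the Hoxb7 promoter is widely used to drive transgenes in the nephric duct and collecting duct.

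With 1 array per line, differences of line, culture and array cannot be told apart, and clone 2 was assumed to vary like the other lines. The arrays had medians between 79.6 in clone 2 and 88.6 in clone 10. Markers of the ureteric bud and duct epithelium lay above the median of their array in all 6 lines for 8 of 8 measured genes, and those of principal cells for 9 of 11, with Aqp4 and Kcnj1 below. The intercalated cell genes Foxi1, Slc4a1, Slc26a4 and Atp6v0d2 were below it everywhere, and Atp6v1b1 was above. None of 9 genes of metanephric mesenchyme and stroma, 4 endothelial or 3 leukocyte genes was above it in all 6 lines. Summed signals of these lists were 333 to 463, 51 to 141 and 27.2 to 89.9. Of the mesenchyme and stroma genes, 6 were below it in all lines, and 3, Osr1, Cited1 and Foxd1, in some. Osr1 was above the array median in all 5 AQP2-expressing lines, at 98.6 to 198, and had 34.8 in clone 2. Of 5 proximal tubule genes, Lrp2 alone was above it, and the summed signal of that list was 267 in clone 2 and 932 to 1234 elsewhere. Of 15 genes of other tissues measured as a reference for low signal, 13 lay below the array median in all 6 lines and 2 in some. The summed signal of the principal cell list was 8254 in clone 2 and 16230 to 22690 in the other lines, with Aqp2, Fxyd4 and Gata3 lower in clone 2 by the limma test described below. That sum includes Aqp2 itself. The labels set clone 2 apart by its lack of aquaporin 2, so the lower Aqp2 follows from the grouping and does not count as support. Aqp3 went the other way, with 192 in clone 2 and 96.4 to 150 in the other lines, a log2 difference of 0.64. For Avpr2 and Scnn1b clone 2 lay within the range of the other lines. The part of the lower principal cell signals in the HOX differences was not tested.

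The lines shared one pattern of high and low HOX signals, with clusters A, B and D represented and cluster C low throughout. Signals were compared with the median of their own array, since the levels of different probe sets cannot be compared with each other. Aqp2 lay above that median in clone 2, at 159 against 79.6, though the labels describe that line as not expressing it. A signal above the array median therefore does not by itself show expression. Above that median in all 6 lines were 16 of the 28 measured members, where the share among all named genes was 52.6%. At or below it in all 6 lines were 11, where the share among all named genes was 37.7%. Neither share is far from the background, so the pattern lies in which members are on each side.

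Cluster A had 6 of 9 members above the median, namely Hoxa2, Hoxa3, Hoxa5, Hoxa7, Hoxa9 and Hoxa10. Hoxa11 and Hoxa13, at the 5′ end, were below it. Hoxa4 was the only member with a mixed outcome. Its signal was 88.9 in clone 2 and 85.6 in the original cells, just over their medians of 79.6 and 85.5, and 56.3 to 80.5 in the other lines, under theirs. In cluster B, Hoxb2, Hoxb3, Hoxb4, Hoxb5, Hoxb6 and Hoxb9 were above, 6 of 7 measured. In cluster D, Hoxd3, Hoxd8, Hoxd9 and Hoxd10 were above, 4 of 6 measured, and the genes toward the ends, Hoxd1 and Hoxd11, were below. All 6 members of cluster C were below.

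By position, 5 of 6 members of paralogue groups 1 to 3 were above the median, 6 of 12 of groups 4 to 8, and 5 of 10 of groups 9 to 13. In clusters A and D the members above it ended at group 10, and Hoxa11, Hoxa13 and Hoxd11 were low. From a list of other HOX genes with 5 of 9 measured, Hoxb1, Hoxc13, Hoxd12 and Hoxd13 were also at or below the median in all lines. Hoxb13, known from prostate and tail bud, was mixed, with signals between 60.7 in clone 9 and 226 in clone 11.

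**Figure D1:**
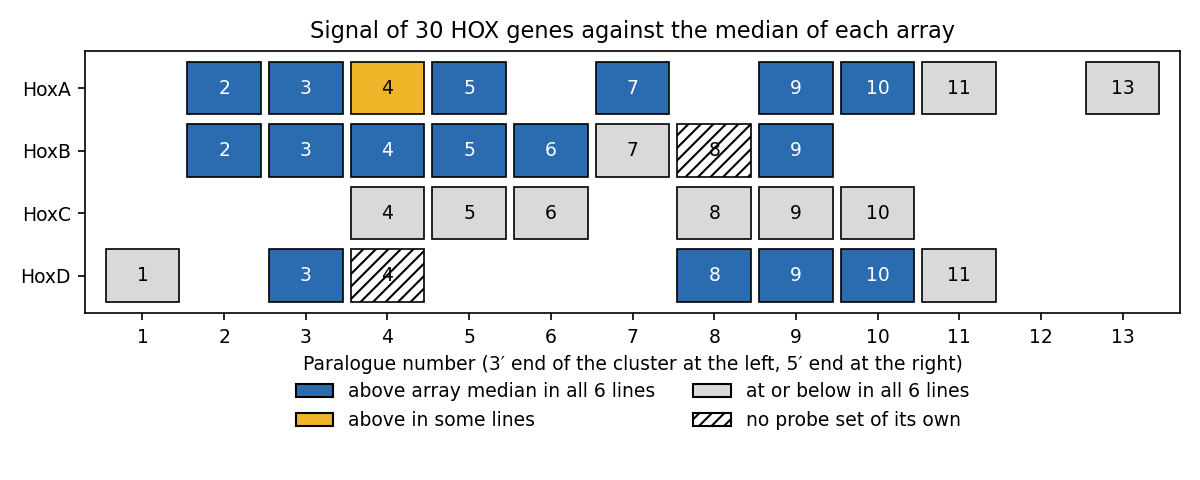
Each box is 1 of the 30 HOX genes, placed by its cluster (vertical axis) and paralogue number (horizontal axis) and coloured by whether its signal lay above the median of the array in all 6 lines, in some lines or in none. The 16 dark boxes lie in clusters A, B and D, the 6 of cluster C are all light, and Hoxb8 and Hoxd4 have no probe set of their own.

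In cluster D, each of the 4 members above the median had its lowest signal in clone 2. The start regions of the 6 members with a probe set of their own, all but Hoxd4, are shown in cluster order, 5′ neighbour first, because the cluster holds low members at both ends and high ones between. They are the 250 bases before the outermost RefSeq start, on the plus strand of chromosome 2 in GRCm38.p6: chr2:74679308-74679557 for Hoxd11, chr2:74691641-74691890 for Hoxd10, chr2:74697513-74697762 for Hoxd9, chr2:74704365-74704614 for Hoxd8, chr2:74711743-74711992 for Hoxd3 and chr2:74762730-74762979 for Hoxd1. Capitals mark CpG dinucleotides, the sites of DNA methylation and a hallmark of the islands at which polycomb and trithorax proteins act.
Hoxd11: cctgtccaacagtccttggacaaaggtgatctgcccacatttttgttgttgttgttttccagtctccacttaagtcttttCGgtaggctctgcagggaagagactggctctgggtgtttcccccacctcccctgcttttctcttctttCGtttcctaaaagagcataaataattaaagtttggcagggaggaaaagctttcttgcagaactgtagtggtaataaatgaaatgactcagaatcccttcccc
Hoxd10: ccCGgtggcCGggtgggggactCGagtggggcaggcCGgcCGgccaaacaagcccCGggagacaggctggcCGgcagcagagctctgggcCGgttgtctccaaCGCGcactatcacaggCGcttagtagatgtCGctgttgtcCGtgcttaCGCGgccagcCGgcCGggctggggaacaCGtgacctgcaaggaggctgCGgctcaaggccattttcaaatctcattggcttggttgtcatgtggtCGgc
Hoxd9: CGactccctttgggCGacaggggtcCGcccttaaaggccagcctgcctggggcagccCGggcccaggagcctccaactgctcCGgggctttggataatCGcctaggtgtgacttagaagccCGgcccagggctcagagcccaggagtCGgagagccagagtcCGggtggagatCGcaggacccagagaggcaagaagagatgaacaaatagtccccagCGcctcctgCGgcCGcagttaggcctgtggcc
Hoxd8: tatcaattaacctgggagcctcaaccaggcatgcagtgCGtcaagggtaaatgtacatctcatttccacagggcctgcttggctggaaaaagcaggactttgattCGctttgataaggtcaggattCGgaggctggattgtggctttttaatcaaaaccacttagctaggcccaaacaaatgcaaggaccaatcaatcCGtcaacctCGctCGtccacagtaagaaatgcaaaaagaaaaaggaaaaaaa
Hoxd3: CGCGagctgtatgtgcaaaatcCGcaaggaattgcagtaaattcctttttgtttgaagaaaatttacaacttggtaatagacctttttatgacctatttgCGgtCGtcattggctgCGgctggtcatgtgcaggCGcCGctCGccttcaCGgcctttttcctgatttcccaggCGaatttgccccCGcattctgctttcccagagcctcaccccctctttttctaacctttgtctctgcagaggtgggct
Hoxd1: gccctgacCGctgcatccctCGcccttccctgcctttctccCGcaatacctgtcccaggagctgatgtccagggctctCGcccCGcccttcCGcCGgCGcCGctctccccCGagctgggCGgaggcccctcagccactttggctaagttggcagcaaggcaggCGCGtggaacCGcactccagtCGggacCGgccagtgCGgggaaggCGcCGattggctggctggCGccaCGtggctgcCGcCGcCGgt
The 4 high members carried 20, 13, 6 and 12 CpG in the order Hoxd10, Hoxd9, Hoxd8 and Hoxd3, and the low ones 2 in Hoxd11 and 24 in Hoxd1, so the count did not separate them. The outermost start of Hoxd3 lies 5′ of the Hoxd4 window at chr2:74721728-74721977, so its count belongs to a start beyond the next gene. The Hoxa3 window likewise lies 5′ of that of Hoxa5. Promoter entries were found for 18 members. The members above the median had 3 to 28 CpG in this window (median 12, 11 promoters) and those below it 2 to 35 (median 13, 5 promoters), while the median over all 32851 promoters was 6. A PBX-HOX motif, TGATTNAT, searched on both strands, was found in Hoxa2 alone, as in 2.82% of all promoters. A motif of CDX and posterior HOX factors, TTTATNG, had 3 matches in Hoxb8 and 1 in Hoxd4, and occurs in 9.81% of all. The cAMP response element TGACGTCA was in none of the 18 and in 1.55% of all. No matches of different motifs overlapped, and a match is only a match of letters.

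Hoxd8 was the only member that passed the test between clone 2 and the 5 AQP2-expressing lines. Signals are given for clone 2 and then for the other lines in a fixed order, clones 3, 9, 10 and 11 and the original cells. For Hoxd8 they were 2525 in clone 2 and 4025, 3720, 4965, 4766 and 4464 in the other lines. Clone 2 lay below all other lines, whose mean was 4388 ± 515 (SD, n = 5). Differences were taken as log2 of the signal plus an offset of 18.8, and clone 2 differed by -0.79 (SE 0.169, limma adjusted p = 0.0496). Across the 10342 genes tested, 1.86% were lower in clone 2 by this rule and 1.29% were higher, against 1 lower and 0 higher of the 16 members tested. At an unadjusted p under 0.05 there were 6 members, 5 of them lower and Hoxa9 higher, where the share over all genes tested was 22.3%.

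The call for Hoxd8 lay at the threshold. Its limma adjusted p was 0.0698 without clone 3, 0.0691 without clone 10, 0.0856 without clone 11 and 0.106 without the original cells, and over all settings tried it ran from 0.0209 to 0.113. A second probe set annotated to Hoxd8 alone had 967 in clone 2 and 1655 to 2481 in the other lines, with a log2 difference of -1.05 (limma adjusted p = 0.0542).

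Hoxd9 and Hoxd10, which belong to the posterior groups and pattern the lumbar spinal cord and hindlimb, followed the same order of clone 2 against the rest. Hoxd9 had 2172 in clone 2 and 3007, 2998, 3953, 4500 and 4004 in the other lines. Its expressing lines averaged 3692 ± 665 (SD, n = 5) and did not overlap with clone 2, at a difference of -0.74 on the log2 scale (SE 0.225, limma adjusted p = 0.117). Hoxd10 had 294 in clone 2 and 508, 361, 637, 495 and 492 in the other lines. Clone 9 came nearest to clone 2 here, and the log2 difference was -0.71 (SE 0.265, limma adjusted p = 0.186).

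Hoxd3, a regulator of the cervical vertebrae, had the largest log2 difference of the members tested. The signal was 94.9 in clone 2, not far above the median of that array, and 187, 191, 209, 295 and 322 in the other lines. The expressing lines averaged 241 ± 63.1 (SD, n = 5), and the log2 difference of -1.16 (SE 0.329) had a limma adjusted p of 0.101. Hoxd4 could be read only on 2 probe sets shared with Hoxd3. Both were lowest in clone 2: one had 146 there and 240 to 496 in the other lines (log2 difference -1.16, limma adjusted p = 0.0910), the other 135 and 219 to 426 (-0.998, 0.152). What part of these signals came from Hoxd4 cannot be read from them.

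**Figure D2:**
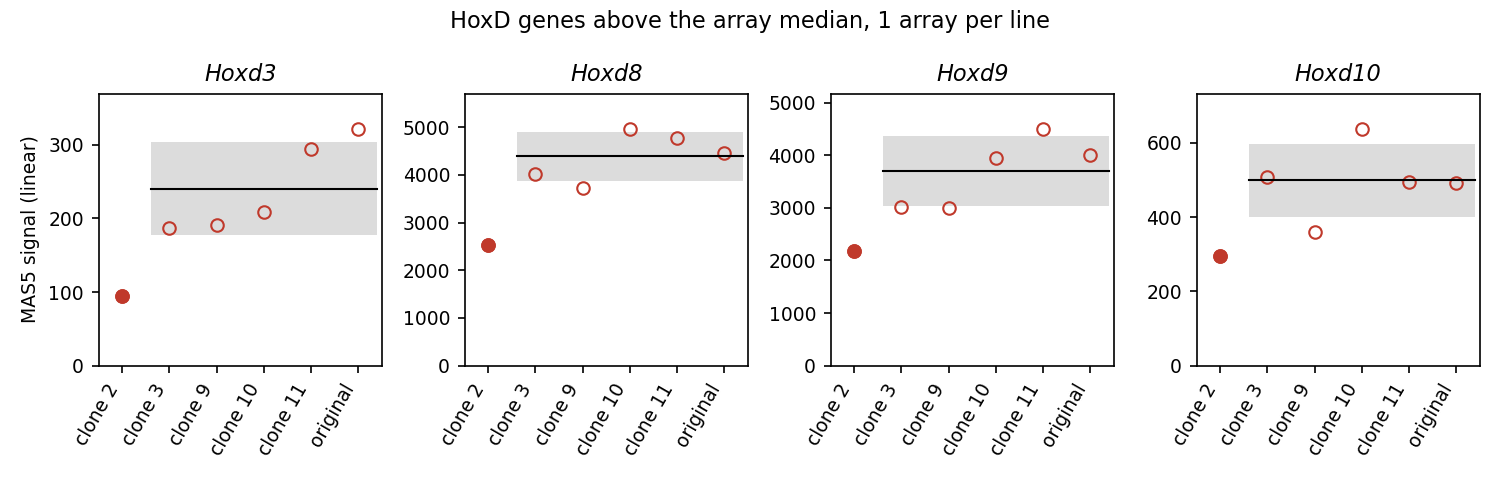
MAS5 signal on a linear axis from 0 (vertical) of the 4 HoxD genes above the array median, by line (horizontal), with 1 array per point. The filled point is clone 2, the line and grey band are the mean ± SD of the 5 AQP2-expressing lines, and clone 2 lies below every other line in all 4 panels.

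Over the 4 HoxD members the log2 differences ran from -1.16 to -0.71 with a median of -0.76, while the median of all 10342 genes was 0.01. The 815 genes tested on chromosome 2, which carries the cluster, had a median of -0.13. That of chromosome 6 (HoxA) was 0.14 over 496 genes and that of chromosome 11 (HoxB) 0.13 over 899. The part of a shift along chromosome 2 in the HoxD values was not tested. Of the coding genes flanking HoxD, Atp5g3 and Mtx2, named here after their values were seen, were also lowest in clone 2. So were 27.3% of the genes above the array median in all 6 lines. Atp5g3, a subunit of the mitochondrial ATP synthase, differed by -0.35 and Mtx2, a mitochondrial import protein, by -0.29. Evx2, beside HoxD and low in all lines, had clone 2 within the range, at 22.7 against 10.1 to 33.3. Hnrnpa3 was not measured.

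In cluster B, clone 2 lay below all other lines for 4 of 6 members, Hoxb2, Hoxb3, Hoxb5 and Hoxb9. Hoxb3 had 2337 in clone 2 and 3665, 2920, 3164, 3459 and 3016 in the other lines. The log2 difference was -0.47 (SE 0.155, limma adjusted p = 0.145). A second Hoxb3 probe set, with 682 in clone 2 and 1036 to 1830 elsewhere, gave -0.94 (limma adjusted p = 0.104). Hoxb5, known from the enteric nervous system, had 851 in clone 2 and 1150.2, 930.2, 1663, 1733 and 1018 in the other lines. Clone 9 and the original cells were close to clone 2, and the log2 difference was -0.55 (SE 0.327, limma adjusted p = 0.380).

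Hoxb2, a hindbrain gene, had 772 in clone 2 and 1003, 823, 1099, 1282 and 865 in the other lines, with a log2 difference of -0.37 (limma adjusted p = 0.422). Hoxb9 had 1884 in clone 2 and 2348, 2408, 2180.0, 2751 and 2164 in the other lines, with a log2 difference of -0.32 (limma adjusted p = 0.302). On the linear signal, the gap below the next line was smaller than the range of the expressing lines for both genes. The same held for the other HoxB and HoxD members above the array median with clone 2 lowest, Hoxd8 included.

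Hoxb4 and Hoxb6 did not set clone 2 apart. Hoxb4, known for its role in blood stem cells, had 453 in clone 2 and 466, 399, 622, 773 and 501 in the other lines. Hoxb6 had 1305 in clone 2 and 1138, 985, 1392, 1467 and 1171 in the other lines. In both, clone 9 was lowest and clone 11 highest, and the log2 differences of clone 2 were -0.24 and 0.10 (limma adjusted p = 0.708 and 0.841).

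Hoxb7 gave 2 different readings. On its own probe set the signal was 8.61 to 62.9, below the array median in every line. On the probe set it shares with Hoxb8 the signal was 590.4 in clone 2 and 1096, 588, 795, 1253 and 718 in the other lines, above the median in all of them. Whether this signal came from Hoxb7, from Hoxb8 or from both cannot be told apart on these arrays, so a low Hoxb7 transcript in this duct line was not shown. The log2 difference of clone 2 on the shared set was -0.52 (SE 0.352, limma adjusted p = 0.442).

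Cluster A did not share the lower signal of clone 2. Hoxa9, best known from blood progenitors and leukaemia, had 3107 in clone 2 and 2139, 1738, 2508, 2326 and 2024 in the other lines. Clone 2 was above all other lines, whose mean was 2147 ± 294 (SD, n = 5), and the difference on the log2 scale was 0.54 (SE 0.193, limma adjusted p = 0.167). A second Hoxa9 probe set had 327 in clone 2, inside the range of 279 to 385 in the other lines, with a difference of 0.04. The higher value therefore rested on 1 of 2 probe sets.

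Hoxa10, required for uterine development, had 846 in clone 2 and 709.5, 408, 643, 819.5 and 765 in the other lines, and clone 2 exceeded clone 11 only slightly (log2 difference 0.37, limma adjusted p = 0.555). Hoxa2, which patterns the hindbrain and the second branchial arch, had 146 in clone 2 and 95.5, 124, 126, 134 and 134 in the other lines, with a log2 difference of 0.23 (limma adjusted p = 0.702). These signals are close to the array median, where MAS5 values are noisy.

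On the probe sets of highest signal, the 3 other HoxA members had clone 2 within the range of the other lines. Hoxa3, needed for thymus and parathyroid, had 274 in clone 2 and 251, 281, 178, 241 and 249.7 in the other lines. On a second Hoxa3 probe set above the array median, clone 2 was below the others, at 103 against 106 to 175, with a log2 difference of -0.27 (limma adjusted p = 0.680). Hoxa5, a lung and thyroid regulator, had 841 in clone 2 and 936, 556, 963, 939 and 969.7 in the other lines, so that clone 9 stood apart below the rest. Hoxa7 had 364 in clone 2 and 510.1, 259, 464, 292 and 319.7 in the other lines. Their log2 differences were 0.19, -0.03 and 0.03 (limma adjusted p = 0.723, 0.973 and 0.973).

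**Figure D3:**
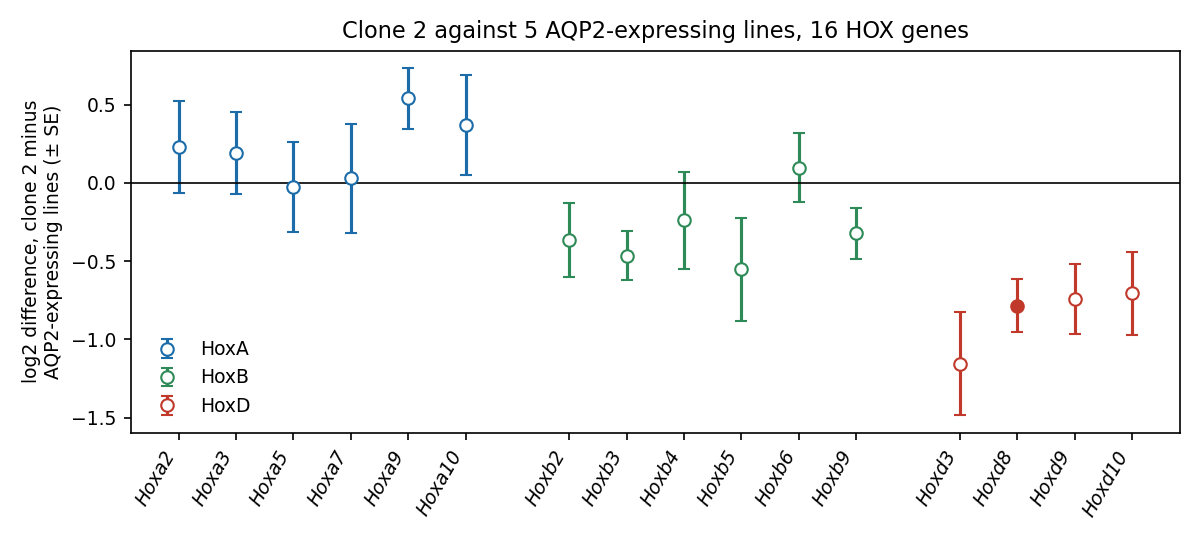
The vertical axis is the fitted log2 difference of clone 2 from the 5 AQP2-expressing lines with its SE, and the horizontal axis holds the 16 HOX genes above the array median, ordered and coloured by cluster. The filled symbol (Hoxd8) passed the limma test, and HoxD values lie between -1.16 and -0.71, HoxB between -0.55 and 0.10 and HoxA between -0.03 and 0.54.

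Across the 16 members above the median, clone 2 lay below all other lines for 8, where the share among all 9575 such genes was 27.3%, and above all others for 3, where it was 29.2%. With median centring clone 2 was lowest for 4 of 4 HoxD and 3 rather than 4 of 6 HoxB members, and highest for 4 rather than 3 of 6 HoxA members. The median log2 difference was 0.21 in cluster A, -0.35 in cluster B and -0.76 in cluster D. These medians kept their sign with quantile normalization (0.27, -0.35 and -0.79) and with median centring (0.30, -0.25 and -0.67). The differences between clusters themselves were not tested.

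Members below the median carried little information on the lines. Their signals ran from 18.4 to 73.7 for Hoxa11 and Hoxa13, from 0.590 to 57.6 over the 6 HoxC members and from 2.52 to 34.1 for Hoxd1 and Hoxd11. Cluster C was read by 10 probe sets, none above 65.5 in any line. With Hoxa4 and Hoxb7, 12 members did not pass the filter on mean signal and were not tested, so a difference in them was not detectable here, and absence of their transcripts was not shown.

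The expressing lines were also set beside each other by cluster, without a test of a difference between clusters. The signal of the highest of these 5 lines was 1.40 to 2.01 times that of the lowest in HoxA, 1.25 to 1.94 times in HoxB and 1.33 to 1.76 times in HoxD. The medians were 1.66, 1.52 and 1.61, and that of all 9575 genes above the array median was 1.36. Clone 9 had the lowest signal for 4 of 6 HoxA members (Hoxa5, Hoxa7, Hoxa9 and Hoxa10), and the mean log2 deviation of HoxA from the mean over the 6 lines was -0.33 there and 0.19 in clone 2. Clone 11 had the highest signal for 5 of 6 HoxB members, all but Hoxb3, with a mean deviation of 0.37, against -0.26 in clone 2 and -0.21 in clone 9. For HoxD the mean deviation was -0.71 in clone 2, -0.16 in clone 9, -0.02 in clone 3, and 0.27, 0.33 and 0.29 in clone 10, clone 11 and the original cells. Each of these line values rests on a single array.

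**Figure D4:**
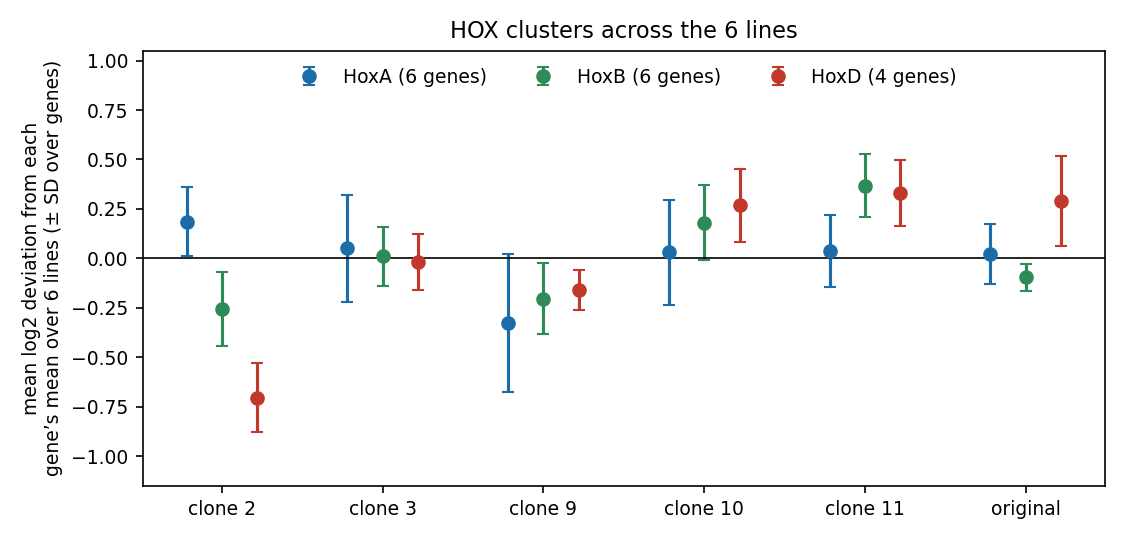
Mean log2 deviation from the mean of each gene over the 6 lines (vertical axis), with the SD over the 6 HoxA, 6 HoxB or 4 HoxD genes above the array median, for each line (horizontal axis). HoxD is lowest in clone 2 at -0.71, HoxA is lowest in clone 9 at -0.33, and HoxB is highest in clone 11 at 0.37.

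The series was designed to find transcripts that follow Aqp2. The Aqp2 signal was 159 in clone 2 and 1698, 4683, 1066, 6578 and 3822 in the other lines. No member passed the limma test of the slope on log2 Aqp2 over the 6 arrays, which shares all arrays with the comparison of clone 2. Among 10341 genes, 1.22% passed with a positive and 1.01% with a negative slope, and 5 of the 16 members had an unadjusted p under 0.05, as did 22.1% of all genes. The HoxD slopes were all positive, 0.08 to 0.26 log2 units per log2 unit of Aqp2, the steepest being Hoxd3 (0.26, SE 0.0664, limma adjusted p = 0.0808). The HoxB slopes ran from -0.02 to 0.08 and the HoxA slopes from -0.12 to 0.003. Without clone 2 the slope of Hoxd3 was 0.17 and that of Hoxd9 0.06, while those of Hoxd8 and Hoxd10 turned to -0.04 and -0.18. Clone 10, the expressing line with the lowest Aqp2, had the highest Hoxd8 and Hoxd10 signals of the 6.

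**Figure D5:**
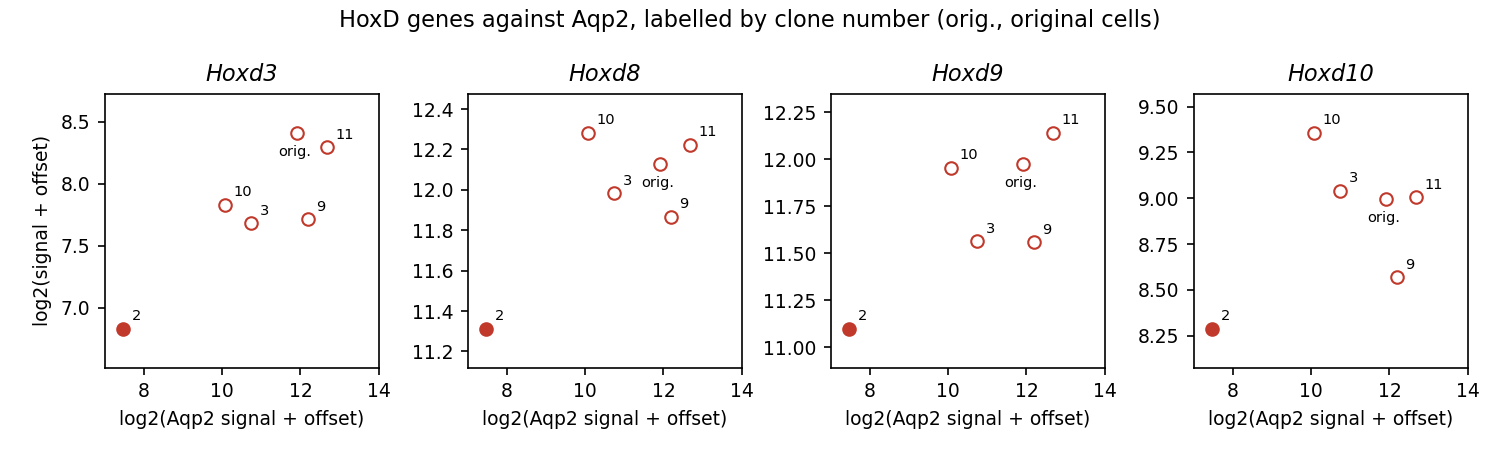
Log2 of the signal plus offset of 4 HoxD genes (vertical axes, which do not start at 0) against the same value of Aqp2 (horizontal axis), with 1 array per point and the filled point for clone 2. Clone 2 lies lowest on both axes, and among the 5 other lines Hoxd8 and Hoxd10 are highest in clone 10, where Aqp2 is lowest of the 5.

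Lists of HOX cofactors, chromatin regulators, neighbours and long RNAs of the clusters, other HOX genes and related kidney genes held 88 genes, of which 73 were measured and 54 passed the filter. By limma, Pbx3, Meis3 and Gata3 were lower in clone 2 and none was higher, and the median log2 difference was -0.08. The share lower in clone 2 over all genes tested was 1.86%. Among the 8 measured HOX cofactors, 6 were tested, with a median of -0.64, Meis3 included. With Meis3 set aside, the middle value was that of Pbx2, at -0.44. Pbx3 and Meis2 lay below it, and Pbx4 and Pknox1 above it, at -0.11 and -0.09. Pbx3, Meis2 and Gata3 lie on chromosome 2, as HoxD does, while Meis3 lies on chromosome 7. The part of a shift along chromosome 2 in the values of Pbx3, Meis2 and Gata3 was not tested. Pbx3, a homeodomain partner of HOX proteins, had 1173 in clone 2 and 1785, 2009, 2203, 2342 and 2260.1 in the other lines. Clone 2 was well below the others (log2 difference -0.84, SE 0.173, limma adjusted p = 0.0443). Meis3, a further cofactor, had 23.5 in clone 2 and 91.1 to 112 in the other lines (-1.53, SE 0.320, limma adjusted p = 0.0460), so that its size depended on the offset. It passed the filter only through the lines where it is high, since clone 2 lay below the median of its array, and it does not count as support for a shift of the cofactors. Adjusted p-values over all settings ran from 0.0341 to 0.0960 for Pbx3 and from 0.0132 to 0.119 for Meis3. Both calls were lost without clone 10, clone 11 or the original cells, that of Meis3 also without clone 3.

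From the list of kidney genes that act with HOX11 or in the nephric duct, 8 of 10 were measured, 3 were tested and 1 was lower in clone 2. This was Gata3, a zinc finger factor of the nephric duct and collecting duct, with 2109 in clone 2 and 3698, 3975, 3960.4, 3721 and 3680 in the other lines. The expressing lines lay close together, and the log2 difference was -0.85 (SE 0.124, limma adjusted p = 0.0146, but 0.0576 without the mean-variance trend). The mesenchymal genes Six2 and Gdnf on this list were below the array median in all lines. Eya1, also on the list, was above that median in all lines. It had 607 in clone 2 and 786 to 1122 in the other lines, a log2 difference of -0.68.

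The chromatin regulators of the clusters did not pass the test in either direction. All 21 measured polycomb genes were above the array median in every line, with a median log2 difference of 0.03. Cbx6, which binds the polycomb histone mark, differed by 0.03, and Ezh2, the enzyme that places it, by 0.36 (limma adjusted p = 0.914 and 0.158). Of 13 measured trithorax and activating regulators, 10 were tested with a median of 0.02. Ctcf, which insulates domains of the clusters, and Kmt2d, a histone methyltransferase, differed by 0.13 and 0.02 (limma adjusted p = 0.692 and 0.947). Cdx1, Cdx2 and Cdx4, the caudal factors that activate HOX genes in the embryo, were below the array median in all lines. Geminin (Gmnn), an inhibitor of replication that also binds HOX proteins, differed by 0.33 (limma adjusted p = 0.333). Among the neighbours of the clusters, 15 of 16 were measured, 11 were tested and none passed, with a median of -0.05; Atp5g3 and Cbx5, a heterochromatin protein, had the highest mean signals, and Cbx5 differed by -0.10. Evx1 and Evx2, homeobox genes at the 5′ ends of HoxA and HoxD, were below the array median in all lines.

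Opposite-strand RNAs at Hoxd3 and Hoxb5 had their lowest signals in clone 2. Hoxd3os1, which was on no list and was chosen after its values were seen, had 777 in clone 2 and 1763, 1835, 1925, 1808 and 1686 in the other lines. The expressing lines averaged 1803 ± 88.6 (SD, n = 5), and the log2 difference was -1.19 (SE 0.144, limma adjusted p = 0.00778, and 0.0048 to 0.0254 over all settings). A second probe set with weaker signal gave -0.86. Its mean of 85.6 passed the filter only through the lines where it is high. Clone 2 had 42.3, under the median of its array, so this probe set does not count as support. Hoxb5os, at Hoxb5, had 674 in clone 2 and 1496, 1995, 1218, 2783 and 1457 in the other lines. Its difference of -1.32 did not pass (SE 0.363, limma adjusted p = 0.0911), whereas its slope on Aqp2 was 0.34 (SE 0.0475, limma adjusted p = 0.0213), the only positive slope called among the listed genes. That call was lost without clone 11 (adjusted p = 0.0723), without the mean-variance trend (0.0704) and without clone 2 (0.254), where the slope was 0.37. Of the 7 long RNAs listed 2 were measured, and the other, Hoxa11os, was below the array median in all lines.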

How the data were processed

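Biotin-labelled RNA from 6 mpkCCD lines was hybridised to 1 array each. The authors deposited linear MAS5 signal intensity values, which the submitters' processing notes credit to Affymetrix Expression Console 1.1. After trimming 2% at either end, every array averaged 500, so levels rest on a common scaling, and MAS5 values are noisy when low. Of 45101 probe sets, 64 controls were left out; 34945 had 1 gene in the platform annotation, 932 several and 9160 none, and 34741 symbols were updated to the GRCm38.p6 gene table. Promoter sequences are RefSeq's, of that build.

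The scale was log2(signal + 18.85), where 18.85 is the 25th percentile; this understates differences of low signals. The 22518 probe sets (10342 genes) with a mean signal over the median of 85.46 were tested, and 1 high line could carry a gene past this filter. limma 3.58.1 in R 4.3.3 (lmFit, eBayes with trend; two-sided) was used with Benjamini-Hochberg adjustment and a threshold of 0.05, and was tested on simulated data. The slope fit left Aqp2 out. Groups came from the labels, which do not say whether arrays came from separate cultures. In the group comparison, p-values rest on the spread among the different expressing lines. That spread mixes line, culture and array, and part of it may be technical. The non-expressing group had 1 array and gave no spread of its own. The number of arrays limits precision.

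The members, gene lists and rules were chosen with earlier results of these data known. Values in all lines were given for members above the array median in all lines, for called members and for those with clone 2 outside the other lines by a log2 difference of at least 1; of each list, called genes or else the 2 of highest mean signal. Alternatives were the offset, the filter, the scaling, the trend, a robust fit, the probe set of a gene, the percentile that counts as high, and leaving out each line.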

Additional observations from a re-analysis of the deposited data

Results flagged for a closer look

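Within the 5 AQP2-expressing lines, a single line stood far from the others for 4 of the 28 measured members, that is, its gap to the nearest line was over 0.71 of the whole range. For Hoxa5 this was clone 9, with a signal of 556 and a gap of 0.92 of the range, and for Hoxa2 clone 3, with 95.5 and 0.739. Hoxc5 in clone 3 (31.1, 0.754) and Hoxc9 in clone 10 (57.6, 0.718) were flagged among members whose signals were below the array median in every line. Chance alone flags about 1 in 20 such groups if values are normal, and on these skewed signals the same rule set a line apart for 8.89% of all named genes and for 5.90% of those above the array median in all lines.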

How the results depend on the processing

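The count of members lower in clone 2, which was 1, became 0 with no filter, with median centring, without the mean-variance trend and with the probe set of lowest mean for each member, and ranged from 0 to 1 when a line was left out; the cause was not tested. The call kept was that of Hoxd8, without clone 9 and under the other settings. On probe sets annotated to 1 gene, no member was called higher in clone 2, or in either direction for the slope, under any setting run. On a probe set shared by Hoxd4 and Hoxd3, the positive slope passed under 1 setting (lowest limma adjusted p = 0.0479). Of all genes on the cofactor, regulator, neighbour and kidney lists, the count lower in clone 2, which was 3, became 1 with no filter and with median centring (Gata3 left) and without the trend (Meis3 left), and was 1 to 3 when a line was left out. The 16 members above the array median in all lines became 9 when the 75th percentile of each array was used. The signs of the differences were the same under every setting fitted on the main probe sets for all tested members except Hoxa5 and Hoxa7, whose values lie near 0; of 6 other probe sets past the filter, 5 had the sign of the main one, and Hoxa3 did not. Over all probe sets, 184 were higher and 376 lower in clone 2, but 254 and 232 after median centring, which moved the median difference of all genes from 0.01 to 0.11. No paired analysis was possible because the labels give the lines no replicate numbers and clone 2 is alone in its group. Each line has 1 array, and differences that rest on a signal below the array median, as for Meis3, depend on the offset.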
